A study of Homo sapiens with 6 samples.

Results

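The genes described here are the 10 that encode the TGF-beta ligands (TGFB1, TGFB2 and TGFB3), their receptors (TGFBR1, TGFBR2 and TGFBR3) and the SMAD proteins that carry or restrain the signal (SMAD2, SMAD3, SMAD4 and SMAD7). They were taken by gene symbol, and all 10 were found among the 46427 genes of the deposited table. The RNA-seq libraries came from 6 preparations of MDA-MB-231, an established human triple-negative breast cancer line grown in low-glucose medium with serum. Of these, 3 preparations had been treated with control-siRNA (genotype label WT) and the other 3 with TAZ-siRNA, which targets the TAZ gene WWTR1 (genotype label TAZ knockdown). All 6 came from the same cell line, and the labels name no ligand added to any of them. The comparison asks how the TGF-beta pathway genes stood in cells that had lost most of their TAZ mRNA, a question raised by the study's separate tests of TGF-beta on the migration of these cells.

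TGF-beta ligands are secreted in latent complexes that hold them inactive in the extracellular matrix until proteases, integrins or thrombospondin release them. A freed ligand binds the type II receptor (TGFBR2), which activates the type I receptor (TGFBR1), and the type I receptor phosphorylates SMAD2 and SMAD3. These join SMAD4, move to the nucleus and switch target genes on or off, while SMAD7, itself a target, blocks the receptor. TAZ is a transcriptional coactivator of the Hippo pathway that acts mainly through TEAD factors. In breast cancer TGF-beta is known both for restraining growth early and for favouring invasion late.

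The control-siRNA libraries held 49662504 to 66769103 counts each and the TAZ-siRNA libraries 48307548 to 71749634. TAZ knockdown left WWTR1 mRNA at 8.64% of its control level, 16.5 ± 1.21 against 191 ± 1.46 CPM (SD, n = 3 each), where CPM is the count scaled to a common normalized library size. The line's labels were checked against marker genes. KRT8, KRT18, KRT19, VIM and CD44 were all expressed, from 63.4 CPM for KRT19 to 3574 CPM for VIM as control-siRNA means, and ESR1, PGR, EPCAM and CDH1 each had group means of at most 1.30 CPM. Of the markers of other cells, PTPRC (blood) and DCN (fibroblasts) had no count in any library, which allows up to 0.0621 CPM, and PECAM1 (endothelium) was at 4.67 ± 0.471 CPM with control-siRNA and 5.61 ± 0.731 CPM with TAZ-siRNA (SD, n = 3 each). On all 6 libraries edgeR's quasi-likelihood test called 3749 genes at an adjusted p under 0.05. Without TAZ-siRNA replicate 3 it called 5928, and without any other single library 1937 to 2687. Results that change without TAZ-siRNA replicate 3 are given both ways. In both groups replicate 3 differed most from the other replicates, by the chi-square of their counts over degrees of freedom. It was 22.1 and 20.1 with control-siRNA, against 6.77 between replicates 1 and 2. With TAZ-siRNA it was 30.1 and 41.8, against 11.7. The edgeR p-values set the group difference against the spread between these cell preparations, a spread estimated in part from all genes tested. In bulk RNA, fewer cells of a kind and less RNA per cell cannot be told apart.

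TAZ knockdown was accompanied by a fall of TGFB2 to 39.3% of control-siRNA, a rise of TGFB1 to 111% and a rise of TGFBR3, the co-receptor, to 138%. The ligand TGFB3, the receptors TGFBR1 and TGFBR2 and all 4 SMAD genes did not pass the test. Thus 3 of the 10 genes passed, 2 as higher and 1 as lower, at an adjusted p under 0.05, against 22.1% of the 16966 genes tested, of which 11.9% were higher and 10.2% lower. All 10 genes passed the filter on low counts. The median log2 fold change of the 10 genes was 0.029, beside -0.0054 over all genes tested. The libraries of both groups did not overlap in 5 of the 10 genes, against 39.6% of all genes tested. The count of 3 rested on the libraries used. It was 1, TGFB2, when any control-siRNA replicate or TAZ-siRNA replicate 1 or 2 was left out, and 5, with TGFBR1 and SMAD7 added as higher, without TAZ-siRNA replicate 3.

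**Figure D1:**
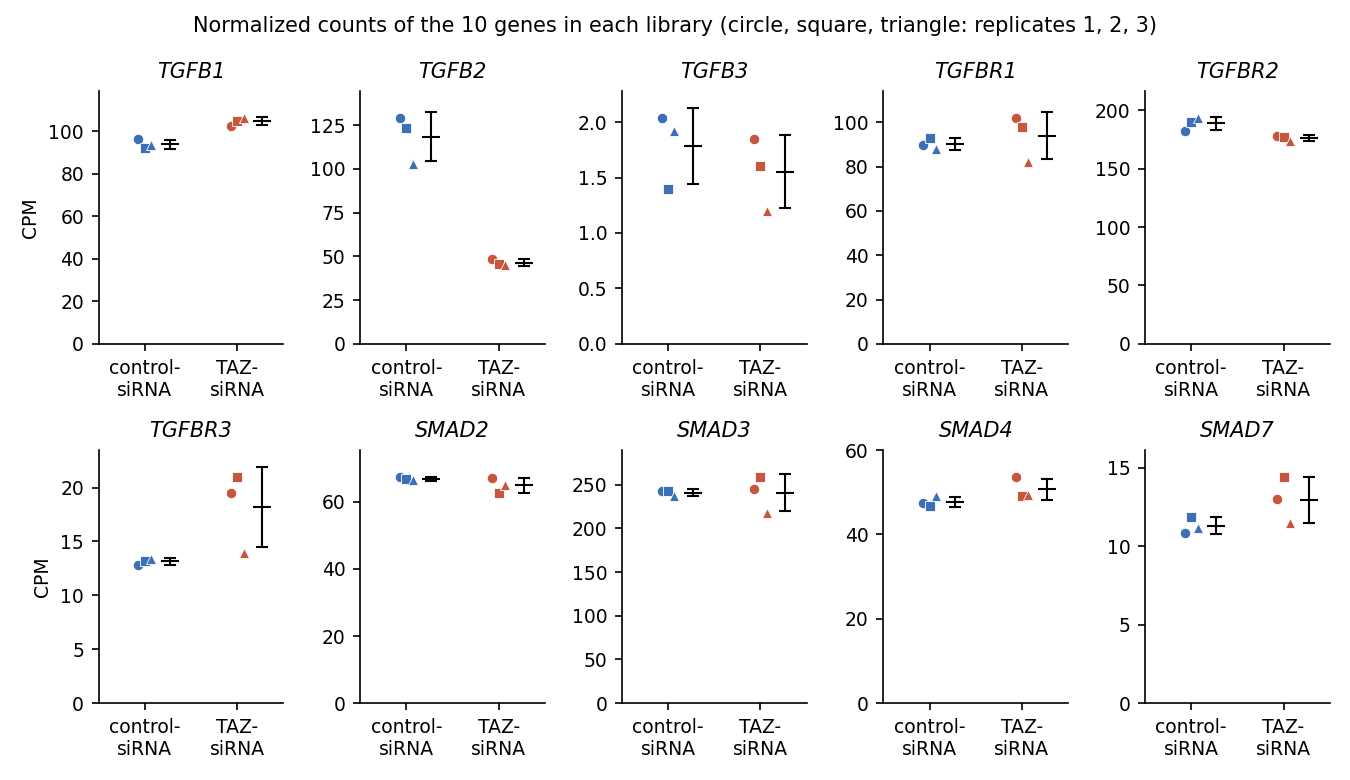
Normalized counts (CPM, linear axes from 0) of the 10 genes in each of the 3 control-siRNA libraries (blue) and 3 TAZ-siRNA libraries (red), with the mean and SD of each group as black bars. The TGFB2 values with TAZ-siRNA lie between 45.2 and 48.6 CPM, far below the control-siRNA values of 102 to 129 CPM, while most other genes sit at similar heights in both groups.

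The promoters of the 3 genes that passed the test are shown because TGFB2 and TGFB1 moved in opposite directions. Each is the RefSeq window from 250 bases before to 50 bases after the transcription start (build GRCh38.p14), given 5′ to 3′ along the gene, at the start of the transcript to which the largest share of its reads was assigned. The windows are chr19:41353873-41354172 on the minus strand for TGFB1, chr1:218345086-218345385 on the plus strand for TGFB2 and chr1:91886102-91886401 on the minus strand for TGFBR3. Capitals mark exact matches, on either strand, to CATTCC (the M-CAT element recognised by TEAD factors), CAGAC (a SMAD-binding element) and GGGCGG (the GC box recognised by SP1). The letters TGACTCA (the AP-1 element), TGACGTCA (CRE) and GTCTAGAC (a pair of SMAD boxes) were searched as well, and these 3 windows hold none of them. No motif searched contains another.
TGFB1: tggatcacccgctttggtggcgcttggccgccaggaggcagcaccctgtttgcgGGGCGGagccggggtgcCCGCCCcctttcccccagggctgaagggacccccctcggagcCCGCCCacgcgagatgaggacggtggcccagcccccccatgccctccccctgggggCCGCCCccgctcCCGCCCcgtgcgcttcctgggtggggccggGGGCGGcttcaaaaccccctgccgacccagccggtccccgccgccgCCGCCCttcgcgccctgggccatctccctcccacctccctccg
TGFB2: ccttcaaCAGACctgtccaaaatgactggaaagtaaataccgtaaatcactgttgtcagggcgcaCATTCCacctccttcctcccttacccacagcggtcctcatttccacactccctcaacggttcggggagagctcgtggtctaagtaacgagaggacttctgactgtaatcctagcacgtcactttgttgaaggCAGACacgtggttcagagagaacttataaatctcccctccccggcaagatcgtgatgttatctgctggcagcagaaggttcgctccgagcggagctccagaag
TGFBR3: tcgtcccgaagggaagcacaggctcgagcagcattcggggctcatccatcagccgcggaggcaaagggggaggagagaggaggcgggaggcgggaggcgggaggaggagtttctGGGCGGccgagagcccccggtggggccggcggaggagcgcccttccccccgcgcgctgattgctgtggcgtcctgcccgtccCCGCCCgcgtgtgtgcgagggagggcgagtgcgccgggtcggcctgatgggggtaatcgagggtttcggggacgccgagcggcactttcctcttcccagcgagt
The TGFB2 window holds 1 CATTCC, with its first base at -185 from the start, and 2 CAGAC, with first bases at -243 and -53, but no GC box. The TGFB1 window holds 7 GC boxes and the TGFBR3 window 2, and neither holds CATTCC or CAGAC. The G and C content was 77.3% for TGFB1, 51.7% for TGFB2 and 71.7% for TGFBR3. Of all 35116 promoter windows of the same length, 14.0% hold CATTCC, 45.3% hold CAGAC and 45.0% hold GGGCGG on either strand, whereas 4.95% hold TGACTCA, 1.85% hold TGACGTCA and 0.202% hold GTCTAGAC. Among the 26 windows listed for the 10 genes, 2 hold CATTCC, that of TGFB2 and 1 of the 8 listed for TGFBR1. A match describes the letters only.

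TGFB2 (NCBI gene 7042, chromosome 1 of GRCh38, 218345284 to 218444619, plus strand) encodes the ligand that depends most on the co-receptor TGFBR3 for binding to TGFBR2. With control-siRNA 8616, 7661 and 4977 reads were assigned to it, and with TAZ-siRNA 3546, 2249 and 2524. In CPM these were 129, 123 and 102 with control-siRNA and 48.6, 45.6 and 45.2 with TAZ-siRNA. All 3 TAZ-siRNA values were below the lowest control-siRNA value, and within the control group replicate 3 was the lowest. TGFB2 mRNA fell from 118 ± 14.0 to 46.5 ± 1.88 CPM (SD, n = 3 each), a log2 fold change of -1.35 with a standard error of 0.080 and a 95% interval of -1.53 to -1.17. The adjusted p was 1.36e-05 from edgeR's quasi-likelihood test, the 9th lowest of the 16966 genes. The exact permutation p over the libraries (2-sided) was 0.1, the smallest that 3 against 3 allow. When single libraries were left out, the log2 fold change stayed between -1.44 and -1.28, and over the 10 other alternatives between -1.43 and -1.22.

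The TGFB2 locus holds 2 further genes whose reads cannot be fully told apart from it. TGFB2-AS1, on the opposite strand at the 5′ end (218344196 to 218345678), had 11 to 27 counts per library and a log2 fold change of -0.75 (95% interval -1.60 to 0.10, adjusted p = 0.192). TGFB2-OT1, on the same strand near the 3′ end (218442626 to 218443995), had 121, 78 and 32 counts with control-siRNA and 18, 22 and 21 with TAZ-siRNA. Whether the counting used the strand is not given in the sources used here, but the counts of both genes were small beside those of TGFB2. The table gives TGFB2 4 RefSeq transcripts, and their shares were not steady between replicates. Transcript variant 2 held 41.7, 77.0 and 96.0% of the TGFB2 TPM (reads scaled for transcript length and to a common total) with control-siRNA and 46.3, 83.5 and 82.1% with TAZ-siRNA, so the fall of the gene could not be placed on 1 transcript.

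TGFB1 (NCBI gene 7040, chromosome 19, 41330323 to 41353922, minus strand) encodes the most widely expressed ligand. It stood at 96.2, 92.0 and 93.6 CPM with control-siRNA and at 103, 105 and 106 CPM with TAZ-siRNA. The groups did not overlap, but the step was small. TGFB1 rose from 93.9 ± 2.11 to 105 ± 1.91 CPM (SD, n = 3 each), a 1.11-fold change with a 95% interval of 1.04 to 1.19 (adjusted p = 0.0304, edgeR). The call was lost when any library other than TAZ-siRNA replicate 3 was left out. The log2 fold change was then 0.14 to 0.18 with adjusted p-values of 0.0608 without TAZ-siRNA replicate 2, 0.0665 without TAZ-siRNA replicate 1, 0.0671 without control-siRNA replicate 1, 0.103 without control-siRNA replicate 3 and 0.143 without control-siRNA replicate 2. Nearly all of the TGFB1 TPM, 98.3 to 99.2% per library, was assigned to its main transcript.

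TGFB3 (NCBI gene 7043, chromosome 14, 75958061 to 75983011, minus strand) was barely expressed, with 87 to 136 counts per control-siRNA library and 67 to 135 per TAZ-siRNA library. Its level was 2.04, 1.40 and 1.92 CPM with control-siRNA and 1.85, 1.60 and 1.20 CPM with TAZ-siRNA, and the groups overlapped. The fold change was 0.874 with a 95% interval of 0.633 to 1.21 (adjusted p = 0.552, edgeR), so at this depth neither a fall to 0.633 of its level nor a rise to 1.21 was outside the interval.

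Because longer mRNAs collect more reads, levels of different genes were set side by side only in FPKM, which the authors scaled for length and library size. In the control-siRNA libraries the summed FPKM of the 3 ligands was 48.8 ± 2.38 (SD, n = 3), of which TGFB1 made up 62.3 ± 2.56%, TGFB2 36.7 ± 2.66% and TGFB3 0.953 ± 0.176%. In the TAZ-siRNA libraries the sum was 41.5 ± 0.885, with 81.9 ± 0.949% from TGFB1, 17.1 ± 0.758% from TGFB2 and 0.985 ± 0.217% from TGFB3 (SD, n = 3 each). The ratio of TGFB1 to TGFB2 in FPKM was 1.59, 1.59 and 1.94 with control-siRNA and 4.50, 4.87 and 5.01 with TAZ-siRNA. The ligand mRNA was therefore mostly TGFB1 in both groups, and the mixture held a smaller share of TGFB2 in every TAZ-siRNA library. The summed ligand FPKM was also lower in each TAZ-siRNA library, 40.5 to 42.1, than in each control-siRNA library, 46.2 to 50.9. These shares are descriptions and were given no test.

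**Figure D2:**
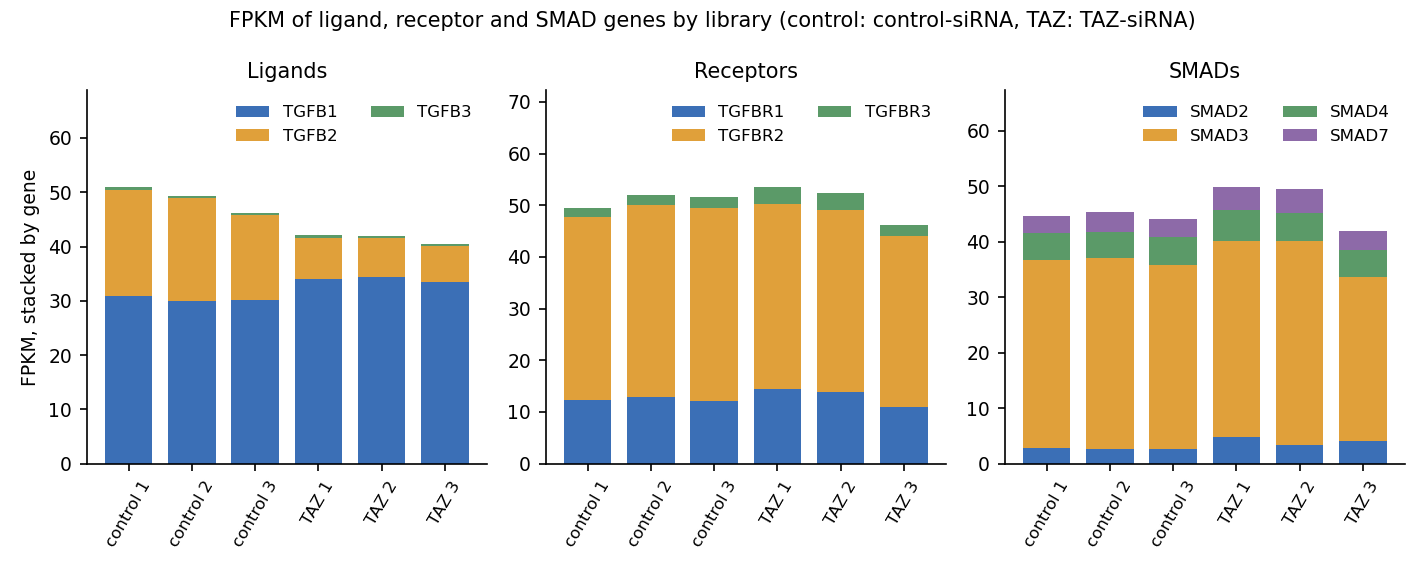
Stacked FPKM of the ligand, receptor and SMAD genes (linear axes from 0) in each library, with control-siRNA replicates 1 to 3 on the left and TAZ-siRNA replicates 1 to 3 on the right of each panel. The TGFB2 segment shrinks from 36.7% to 17.1% of the ligand FPKM as group means, and TGFBR2 and SMAD3 remain the tallest segments of their panels in all 6 libraries.

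TGFBR3 (NCBI gene 7049, chromosome 1, 91680343 to 91906002, minus strand) encodes betaglycan, the co-receptor that presents ligand, TGFB2 above all, to the type II receptor. It was at 12.8, 13.2 and 13.4 CPM with control-siRNA and at 19.5, 21.0 and 14.0 CPM with TAZ-siRNA. TAZ-siRNA replicate 3 lay just above the control range, and both other TAZ-siRNA libraries lay well above it. TGFBR3 rose from 13.2 ± 0.298 to 18.2 ± 3.71 CPM (SD, n = 3 each), or 1.38-fold with a 95% interval of 1.13 to 1.69 (log2 fold change 0.47 ± 0.13 SE, adjusted p = 0.0299, edgeR). Without TAZ-siRNA replicate 3 the log2 fold change was 0.63 (adjusted p = 1.13e-05). The adjusted p was 0.0914, 0.0866 and 0.0800 without control-siRNA replicate 1, 2 and 3, and 0.118 and 0.0885 without TAZ-siRNA replicate 1 and 2, so the call was lost in each of these. It was also lost by limma on log2(FPKM + 1), with a log2 fold change of 0.39 (adjusted p = 0.0731), on log2(FPKM + 0.1), with 0.53 (adjusted p = 0.0675), and on log2(TPM + 1), with 0.51 (adjusted p = 0.0678).

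TGFBR2 (NCBI gene 7048, chromosome 3, 30606472 to 30694142, plus strand), the type II receptor that binds the ligand first, had the highest mean FPKM of the 10 genes in both groups, although with TAZ-siRNA its libraries overlapped with those of TGFB1 and SMAD3. It was at 182, 190.2 and 194 CPM with control-siRNA and at 178, 177 and 174 CPM with TAZ-siRNA. The TAZ-siRNA values were all below the lowest control-siRNA value, by a narrow margin. The log2 fold change of -0.097 (95% interval -0.20 to 0.0059) did not pass the test (adjusted p = 0.163, edgeR). With a correction for GC content and transcript length it was -0.15 and passed (adjusted p = 0.0185). TGFBR1 (NCBI gene 7046, chromosome 9, 99104038 to 99154192, plus strand), the type I receptor kinase, was at 89.6, 92.9 and 87.9 CPM with control-siRNA and at 102, 97.9 and 82.0 CPM with TAZ-siRNA. The TAZ-siRNA libraries lay on both sides of the control range, with replicate 3 the lowest. The log2 fold change was 0.061 (95% interval -0.10 to 0.22, adjusted p = 0.604, edgeR). Without TAZ-siRNA replicate 3 it was 0.15 and passed (adjusted p = 0.0157), and without TAZ-siRNA replicate 1 it was -0.0019. Of the summed receptor FPKM, TGFBR2 made up 71.9 ± 0.749% with control-siRNA and 68.6 ± 2.75% with TAZ-siRNA, TGFBR1 24.4 ± 0.818% and 25.8 ± 1.72%, and TGFBR3 3.75 ± 0.110% and 5.61 ± 1.06% (SD, n = 3 each). The TGFBR3 share rests in part on the assignment of its reads to transcripts. Their mean length weighted by TPM was 6133 bases with control-siRNA and 5742 bases with TAZ-siRNA.

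SMAD3 (NCBI gene 4088, chromosome 15, 67065602 to 67195195, plus strand) binds DNA directly and is the receptor-activated SMAD with the most mRNA here. It stood at 243, 243 and 236 CPM with control-siRNA and at 245, 259 and 217 CPM with TAZ-siRNA. The group means, 241 ± 3.78 and 240.5 ± 21.2 CPM (SD, n = 3 each), differed by less than the spread between libraries, and the 95% interval of the fold change was 0.904 to 1.10 (adjusted p = 0.988, edgeR). SMAD4 (NCBI gene 4089, chromosome 18, 51030213 to 51085042, plus strand), the partner shared with the BMP branch of the pathway, was at 47.4, 46.8 and 49.1 CPM with control-siRNA and at 53.7, 49.2 and 49.4 CPM with TAZ-siRNA. The groups did not overlap, but the lowest TAZ-siRNA library was close to the highest control-siRNA library. The fold change was 1.06 with a 95% interval of 0.977 to 1.16 (adjusted p = 0.282, edgeR).

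SMAD7 (NCBI gene 4092, chromosome 18, 48919853 to 48950711, minus strand), the inhibitory SMAD that TGF-beta itself induces, was at 10.9, 11.9 and 11.2 CPM with control-siRNA and at 13.0, 14.4 and 11.5 CPM with TAZ-siRNA. Only TAZ-siRNA replicate 3 lay within the control range. The fold change was 1.15 with a 95% interval of 0.994 to 1.32 (adjusted p = 0.155, edgeR). Without TAZ-siRNA replicate 3 the log2 fold change was 0.28 in place of 0.20 and passed the test (adjusted p = 0.0178).

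**Figure D3:**
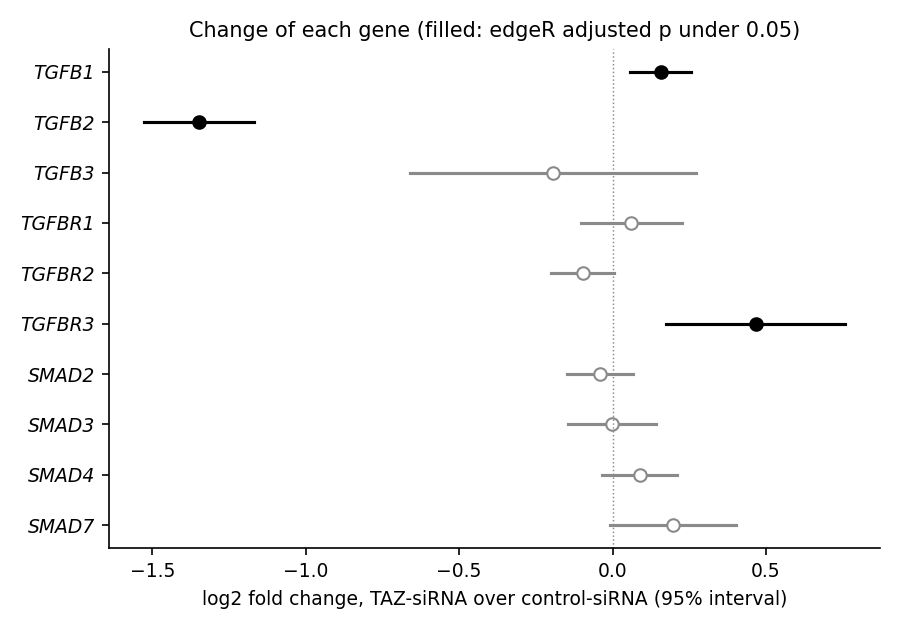
Log2 fold change of each gene with its 95% interval from edgeR on all 6 libraries, filled where the adjusted p was under 0.05. TGFB2 lies at -1.35, apart from the other 9 genes, which lie between -0.19 and 0.47.

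SMAD2 (NCBI gene 4087, chromosome 18, 47808957 to 47931188, minus strand), the other receptor-activated SMAD, gave different answers in counts and in FPKM. In CPM it was at 67.4, 66.7 and 66.4 with control-siRNA and at 67.2, 62.7 and 64.9 with TAZ-siRNA. The groups overlapped, and the fold change was 0.972 with a 95% interval of 0.902 to 1.05 (adjusted p = 0.582, edgeR). In FPKM it was 2.76, 2.73 and 2.63 with control-siRNA and 4.74, 3.38 and 4.06 with TAZ-siRNA, and all 3 TAZ-siRNA values were above the highest control-siRNA value. Limma on log2(FPKM + 1) gave a log2 fold change of 0.44 (adjusted p = 0.0174) and on log2(FPKM + 0.1) 0.56 (adjusted p = 0.0140), and on log2(TPM + 1) it gave 0.55 (adjusted p = 0.0157). So the SMAD2 call depended on whether reads or length-scaled values were compared.

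The difference followed the transcripts to which the SMAD2 reads were assigned. Of the 14 RefSeq transcripts in the table, 2 are 34400 and 34626 bases long and end at the distal end of the gene, and the other 12, of 7683 to 10754 bases, end at least 24.1 kb before it. The 2 long transcripts held 74.6, 75.2 and 76.8% of the SMAD2 counts with control-siRNA and 28.5, 54.5 and 37.0% with TAZ-siRNA. In CPM they stood at 50.3, 50.2 and 50.9 with control-siRNA and at 19.2, 34.2 and 24.0 with TAZ-siRNA. The 12 shorter transcripts together stood at 17.1, 16.5 and 15.4 CPM with control-siRNA and at 48.0, 28.5 and 40.9 CPM with TAZ-siRNA. The control-siRNA libraries were close to each other in both sets of transcripts, and the TAZ-siRNA libraries were spread, with replicate 2 nearest to the control range. The mean transcript length weighted by TPM was 21699 to 22468 bases with control-siRNA and 13001 to 16840 bases with TAZ-siRNA, so a like number of reads gave a higher FPKM. For the other 9 genes the group means of this length differed much less, the most for TGFBR3, from 6133 to 5742 bases. Estimates for single transcripts are imprecise, and no test was made of these shares. Among the shorter SMAD2 transcripts the assignment changed from library to library. Transcript variant X2 held 220, 121 and 288 counts with control-siRNA and 1448, 156 and 2 with TAZ-siRNA. Transcript variant 3 held 2.82 to 8.72% of the counts in control-siRNA libraries and 9.18 to 26.2% in TAZ-siRNA libraries, without overlap of the groups. Its share of the SMAD2 TPM was 18.1, 5.91 and 11.3% with control-siRNA and 16.1, 14.8 and 34.8% with TAZ-siRNA. On that scale the groups overlapped.

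**Figure D4:**
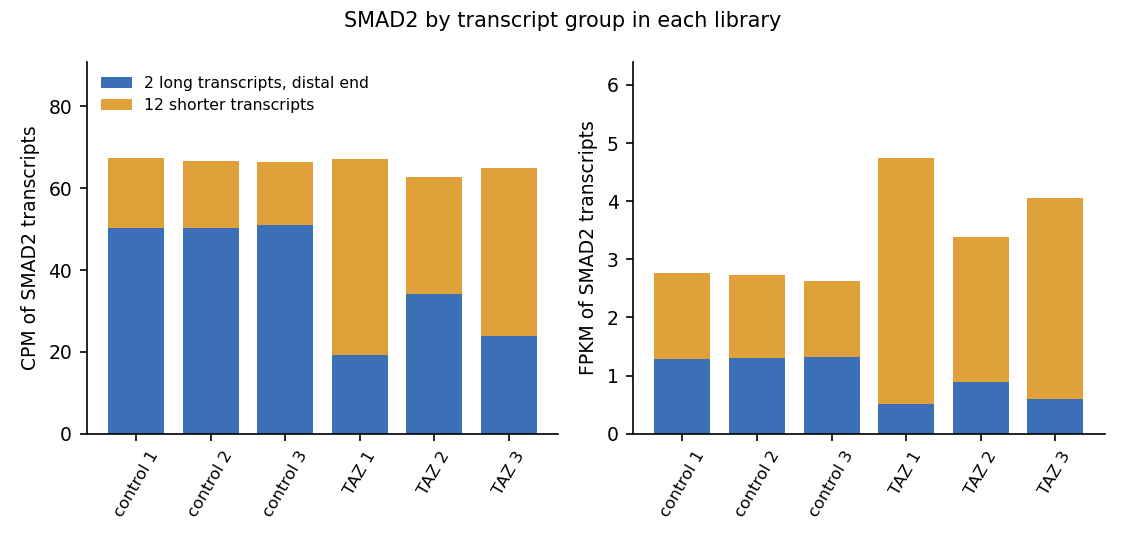
SMAD2 in CPM (left) and FPKM (right), linear axes from 0, stacked by the 2 transcripts that reach the distal end (blue) and the 12 shorter ones (orange) in each library. The CPM bars are alike in height in all 6 libraries, but the blue segment is 50.2 to 50.9 CPM with control-siRNA and 19.2 to 34.2 CPM with TAZ-siRNA, and the FPKM bars are taller with TAZ-siRNA.

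In the order of FPKM, the control-siRNA libraries ran TGFBR2 (36.6 ± 1.09), SMAD3 (33.8 ± 0.564), TGFB1 (30.4 ± 0.476), TGFB2 (18.0 ± 2.10), TGFBR1 (12.4 ± 0.433), SMAD4 (4.86 ± 0.102), SMAD7 (3.29 ± 0.180), SMAD2 (2.71 ± 0.0705), TGFBR3 (1.91 ± 0.102) and TGFB3 (0.465 ± 0.0841), each as mean ± SD with n = 3. No neighbours in this order overlapped in their libraries. With TAZ-siRNA, TGFBR2 (34.7 ± 1.39 FPKM), TGFB1 (34.0 ± 0.463) and SMAD3 (33.9 ± 3.79) overlapped, and so did SMAD2 (4.06 ± 0.683) and SMAD7 (3.96 ± 0.477). TGFB2 (7.10 ± 0.439 FPKM) then stood below TGFBR1 (13.1 ± 1.86 FPKM), the reverse of their order with control-siRNA, without overlap in either group. Of the summed SMAD FPKM, SMAD3 made up 75.7 ± 0.351% with control-siRNA and 71.8 ± 1.94% with TAZ-siRNA (SD, n = 3 each), while its own mean FPKM was 33.8 and 33.9. The share of SMAD2 was 6.06 ± 0.116% and 8.68 ± 1.61%, a share that rests on the assignment of its reads to transcripts described above.

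The genes around the 10 were taken from lists of pathway roles. These lists were chosen with earlier results of these data known, so the share of each that passed is a description only. Among genes of latency and activation, 8 of the 12 tested (66.7%) passed the test, 7 higher and 1 lower with TAZ-siRNA, against 22.1% of all genes tested. The median log2 fold change of the list was 0.29. ITGB8, the beta subunit of an integrin that frees latent TGF-beta, was low but rose from 0.759 ± 0.138 to 2.18 ± 0.230 CPM, or 2.87-fold (adjusted p = 0.000544). LTBP3 rose from 113 ± 6.24 to 158 ± 15.1 CPM (adjusted p = 0.00108) and LTBP1 from 54.1 ± 0.835 to 72.5 ± 4.39 CPM (adjusted p = 0.000669), and both encode proteins that tether latent ligand to the matrix. FURIN, the protease that cuts the ligand precursor, rose from 73.9 ± 2.57 to 96.4 ± 4.42 CPM (adjusted p = 0.000781). FBN1, the fibrillin to which these proteins attach, rose from 89.2 ± 5.11 to 115 ± 17.1 CPM (adjusted p = 0.0266). THBS1, which encodes the activator thrombospondin, was the gene that fell, from 605 ± 56.7 to 360.2 ± 21.5 CPM (log2 fold change -0.75, adjusted p = 0.000196, all values SD, n = 3, edgeR). LRRC32, which holds latent ligand on the cell surface, had 0 to 8 counts in control-siRNA libraries, 9 to 13 in TAZ-siRNA libraries, and was not tested. The count of 8 fell to 5 without control-siRNA replicate 2, control-siRNA replicate 3 or TAZ-siRNA replicate 1, and it was 5 by limma on FPKM. FBN1 lost its call without control-siRNA replicate 2 (adjusted p = 0.0726), control-siRNA replicate 3 (0.0953), TAZ-siRNA replicate 1 (0.0971) or TAZ-siRNA replicate 2 (0.0641), and by limma on each scale.

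Of 13 accessory receptors and adaptors, 3 (23.1%) passed the test, 1 higher and 2 lower, against 22.1% of all genes tested, and the median log2 fold change was -0.060. ENG, the co-receptor endoglin, rose from 67.0 ± 2.60 to 83.4 ± 6.18 CPM (adjusted p = 0.00527). USP4, a deubiquitinase that acts on the type I receptor, fell from 55.8 ± 0.596 to 46.7 ± 0.419 CPM (adjusted p = 0.00428), a call that was lost by limma on log2(TPM + 1) (adjusted p = 0.0689). SHC1, an adaptor between the receptors and the MAP kinase pathway, fell from 245 ± 11.7 to 207 ± 24.6 CPM (adjusted p = 0.0475, SD, n = 3, edgeR). The SHC1 call was lost without any library other than TAZ-siRNA replicate 3, with adjusted p-values of 0.0869, 0.132 and 0.169 without control-siRNA replicate 1, 2 and 3 and 0.172 and 0.155 without TAZ-siRNA replicate 1 and 2. It was also lost with upper-quartile factors (adjusted p = 0.0515), with the GC and length correction (0.0641) and by limma on log2(TPM + 1) (0.0520).

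Negative regulators gave 10 of 15 genes past the test (66.7%), 8 higher and 2 lower with TAZ-siRNA, against 22.1% of all genes tested (11.9% higher and 10.2% lower), and the median log2 fold change was 0.27. PMEPA1, which takes receptor-activated SMADs away from the receptor, rose from 36.0 ± 0.577 to 56.1 ± 0.898 CPM, or 1.56-fold (adjusted p = 6.32e-05). WWP1 rose from 48.3 ± 0.918 to 63.1 ± 3.86 CPM (adjusted p = 0.0013) and SMURF1 from 80.1 ± 3.16 to 99.2 ± 2.71 CPM (adjusted p = 0.00188), and both encode ubiquitin ligases that act on the receptors or SMADs. LEMD3, an inner nuclear membrane protein that binds SMADs, rose from 34.2 ± 1.85 to 42.1 ± 1.84 CPM (adjusted p = 0.00684), and TGIF1, a SMAD corepressor, rose from 39.4 ± 1.29 to 48.2 ± 3.23 CPM (adjusted p = 0.00808). NEDD4L, another ubiquitin ligase of the same family, fell from 152 ± 10.6 to 90.5 ± 3.84 CPM, or to 59.4% (adjusted p = 6.41e-05, SD, n = 3, edgeR). SMURF2, also a ubiquitin ligase, fell from 151 ± 2.82 to 134 ± 4.84 CPM (adjusted p = 0.0241, SD, n = 3, edgeR). The ligases therefore did not move in 1 direction. The number called lower was 1 in place of 2 without any control-siRNA replicate or TAZ-siRNA replicate 2, and by limma. The count of 10 was 6 without control-siRNA replicate 2 or 3, and 6 by limma on FPKM or TPM, where TGIF1 did not pass (adjusted p = 0.158 to 0.190).

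Among nuclear partners of the SMADs, 3 of 14 (21.4%) passed the test, 2 higher and 1 lower, against 22.1% of all genes tested, and the median log2 fold change was 0.077. FOXO1 rose from 10.8 ± 1.29 to 14.1 ± 0.849 CPM (adjusted p = 0.0171) and FOXO3 from 73.1 ± 1.28 to 88.4 ± 6.29 CPM (adjusted p = 0.00721), both forkhead factors that join SMAD complexes. MYC, which TGF-beta represses in many epithelial cells, fell from 133 ± 4.63 to 108 ± 10.3 CPM (adjusted p = 0.00973, SD, n = 3, edgeR). The count of 3 was 1 without TAZ-siRNA replicate 1, 8 without TAZ-siRNA replicate 3, 2 without any control-siRNA replicate and 5 by DESeq2. FOXO1 lost its call without control-siRNA replicate 2 (adjusted p = 0.0705), control-siRNA replicate 3 (0.0686) or TAZ-siRNA replicate 1 (0.0799) and by limma on each scale (0.0586 to 0.0622), and MYC without control-siRNA replicate 1 (0.0555) or TAZ-siRNA replicate 1 (0.0537). The SMADs of the BMP branch, SMAD1, SMAD5 and SMAD9, gave 0 calls of 3 by edgeR, 2 at an unadjusted p under 0.05, and 0 by DESeq2 and by limma, whereas edgeR called 1 with at least 10 counts required per library, with a replicate block or with the GC and length correction. The list had a median log2 fold change of 0.20. SMAD9 was at 8.81 ± 0.490 CPM with control-siRNA and 10.6 ± 0.877 CPM with TAZ-siRNA (adjusted p = 0.0519), and SMAD1 at 13.1 ± 0.800 and 15.0 ± 0.804 CPM (adjusted p = 0.0884, SD, n = 3). SMAD5 was at 86.4 ± 4.54 and 83.7 ± 6.83 CPM (adjusted p = 0.664, edgeR). Without TAZ-siRNA replicate 3, 2 of the 3 passed, both higher.

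Of 25 genes known as TGF-beta targets, 24 were tested and 14 (58.3%) passed the test, 7 higher and 7 lower with TAZ-siRNA, against 22.1% of all genes tested (11.9% higher and 10.2% lower). The count ran from 10 to 18 when single libraries were left out. Its median log2 fold change was 0.15, and several members are also targets of TAZ and its relative YAP. Of the 4 largest changes past the test, 3 were falls. EDN1, the vasoconstrictor endothelin, fell from 8.10 ± 1.07 to 3.11 ± 0.385 CPM, or to 38.4% (adjusted p = 0.000144). PDGFB, a growth factor subunit, fell from 9.05 ± 0.398 to 3.65 ± 0.774 CPM, or to 40.3% (adjusted p = 0.000245). CCN2, a matricellular protein and also a standard target of TAZ, fell from 800.0 ± 87.7 to 395 ± 23.2 CPM, or to 49.4% (adjusted p = 7.02e-05). NEDD9, a scaffold of focal adhesions, fell from 12.7 ± 1.11 to 7.72 ± 0.630 CPM (adjusted p = 0.000669). ADAM19, a membrane metalloprotease, rose from 35.2 ± 1.18 to 78.8 ± 11.8 CPM, or 2.24-fold (adjusted p = 0.000106). JUNB, an AP-1 subunit that TGF-beta induces quickly, rose from 159 ± 10.7 to 237 ± 16.6 CPM, or 1.49-fold (adjusted p = 0.000375, all values SD, n = 3, edgeR). CDKN2B, the cell cycle inhibitor, had no count in any library, which allows up to 0.0621 CPM.

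**Figure D5:**
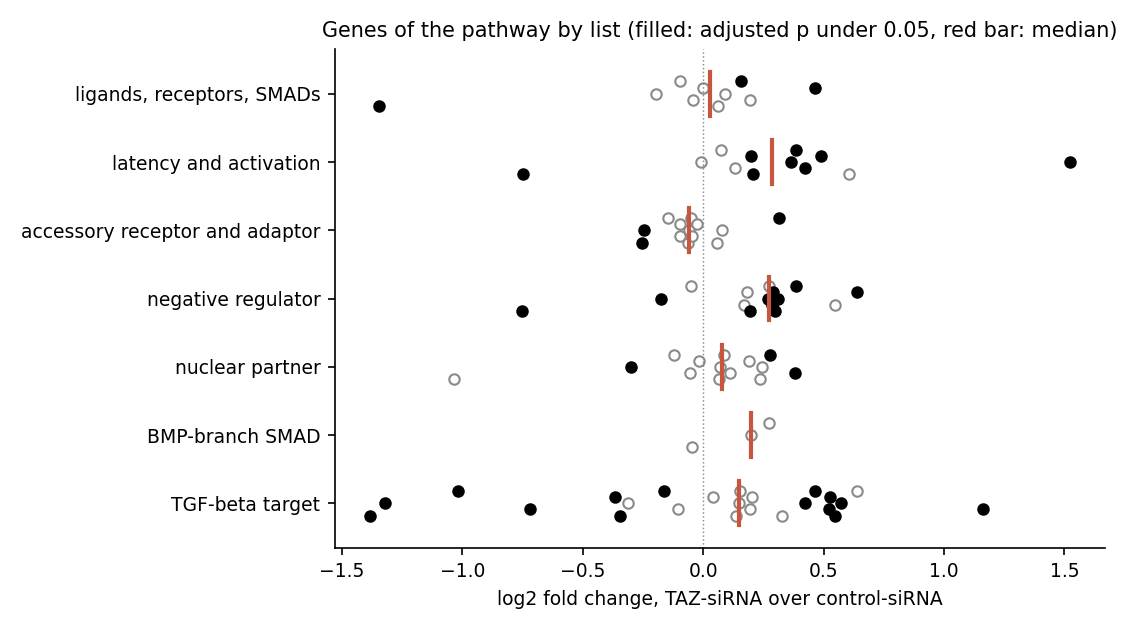
Log2 fold changes (TAZ-siRNA over control-siRNA) of the 10 genes and of each list, 1 point per gene tested, filled where edgeR's adjusted p was under 0.05, with the list's median as a red bar. The medians of latency and activation genes (0.29) and negative regulators (0.27) lie to the right of 0, and the TGF-beta targets spread from -1.38 to 1.16.

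A search of the 9938 genes whose mean reached 10 CPM gave the 5 whose log2 CPM followed that of TGFB2 most closely over the 6 libraries, namely ARHGAP29, FRMD6, UGCG, DHX37 and OGFRL1, with Pearson r from 0.998 to 0.999. All 5 were lower with TAZ-siRNA, with log2 fold changes of -0.66, -0.62, -0.61, -0.27 and -0.78, so each fell less than TGFB2 on that scale. The 6 points fall into 2 groups and share their libraries, so these values are a description only.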

How the data were processed

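RNA of 3 control-siRNA and 3 TAZ-siRNA preparations was grouped by the sample labels. The authors trimmed paired reads from stranded mRNA libraries, used HISAT2 for mapping to GRCh38 and StringTie for the abundance of RefSeq transcripts. Bowtie 0.12.2 and mm8 also stand in the submitters' processing notes, with no role given, and the coordinates used here are those of the deposited table on GRCh38. The estimated counts per gene and transcript are whole numbers that the authors obtained from the coverage of each transcript. The deposited FPKM are such estimates divided by length and library size, and the deposited TPM are divided by length and set to a common total. FPKM and TPM therefore follow the assignment of reads to transcripts more than counts do. Sample titles number the replicates differently from the value columns, whose numbers are used.

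Counts were compared with edgeR 4.0.16 (R 4.3.3): TMM normalization, filterByExpr (minimum count 10), the quasi-likelihood test with robust dispersions, Benjamini-Hochberg adjustment over all 16966 genes tested, threshold 0.05. CPM use the normalized library size. A floor of 3 counts corresponds to 0.0418 to 0.0621 CPM and covers counting error only. Replicates differed by more than the sampling noise (chi-square over degrees of freedom, 6.77 to 41.8). Alternatives were DESeq2 1.42.0, its size factors, upper-quartile factors, other filters, a replicate block, a GC and length correction (spline with 5 degrees of freedom, values for 92.3% of the genes tested and all 10 members), limma 3.58.1 on log2(FPKM + 1), log2(FPKM + 0.1) and log2(TPM + 1), a threshold of 0.01, and each library left out. The scripts were tested on simulated data. The members and lists were chosen with earlier results of these data known. Named genes are the 10 members, WWTR1, up to 6 called genes of each list with the largest change, list genes without expression, genes overlapping a member and the 5 genes most like TGFB2. The genes LOC105377016 and LOC105372117, which overlap TGFBR2 and SMAD4, had 10 to 28 counts per library. SMAD1, SMAD5, SMAD9 and SMURF2 were named after their values were seen. Promoter sequences are from RefSeq, and all 10 members were matched by symbol.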

Additional observations from a re-analysis of the deposited data

How the results depend on the processing

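The fall of TGFB2 kept its direction and its call under all 10 alternatives and with each library left out. The rise of TGFB1 lost its call without a filter on low counts (adjusted p = 0.0543, edgeR). Of the genes that did not pass, 4 turned sign under an alternative, and SMAD2 then passed as higher. With the GC and length correction TGFBR1 was -0.0059 and SMAD4 -0.0025, SMAD3 was 0.044 by limma on log2(TPM + 1), and SMAD2 was 0.44, 0.56 and 0.55 by limma on log2(FPKM + 1), log2(FPKM + 0.1) and log2(TPM + 1). With each library left out, TGFBR1 ran from -0.0019 to 0.15 and SMAD3 from -0.054 to 0.069.

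With each library left out, the number of the 10 genes called ran from 1 to 5, of latency and activation genes from 5 to 8, of accessory receptors and adaptors from 2 to 3, of negative regulators from 6 to 13, of nuclear partners from 1 to 8, of BMP-branch SMADs from 0 to 2 and of targets from 10 to 18. Over all genes it ran from 1937 to 5928, against 3749. At an adjusted p under 0.01, 1 of the 10 genes, 5 latency and activation genes and 6 negative regulators were called. Limma on log2(FPKM + 1) and on log2(FPKM + 0.1) called 5 latency and activation genes and 6 negative regulators each, and on log2(TPM + 1) 6 negative regulators and 1 accessory gene. The GC and length correction called 5 accessory genes and 1 BMP-branch SMAD, DESeq2 5 nuclear partners, and requiring 10 counts in each library 1 BMP-branch SMAD. The causes were not tested.

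Same-numbered libraries matched only in part. The correlations of their deviations from the group means were 0.068, 0.050 and 0.28 for replicates 1, 2 and 3. Control-siRNA replicate 1 followed TAZ-siRNA replicate 2 more closely (0.093), and control-siRNA replicate 2 followed TAZ-siRNA replicate 1 (0.18). Replicate 3 of either group correlated negatively with replicates 1 and 2 of the other (-0.23 to -0.13). The deviations of a group cancel out for each gene, so these negative values follow in part from the positive value between the replicate 3 libraries. A cause shared by both replicate 3 libraries was not tested. A replicate block called 5122 genes in all, 3 of the 10 genes, 8 latency and activation genes, 3 accessory genes, 13 negative regulators, 6 nuclear partners, 1 BMP-branch SMAD and 18 targets, with TGFB2 at -1.34.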

Other observations

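The assignment of reads to transcripts is also given for 3 further genes, as values with no test. SMAD7 transcript variant 3, whose start lies within the gene, held 0.22, 2.21 and 0.00% of the SMAD7 TPM with control-siRNA and 19.6, 10.9 and 23.2% with TAZ-siRNA, from 0 to 13 and from 60 to 145 counts. The shorter TGFBR3 transcript variant X1 held 0.00, 11.8 and 12.5% of the TGFBR3 TPM with control-siRNA and 33.5, 23.7 and 13.6% with TAZ-siRNA. In TGFBR2, transcript variant 1, the longer receptor isoform, held 29.2, 36.0 and 36.9% of the TPM with control-siRNA and 29.9, 21.4 and 21.6% with TAZ-siRNA, and the groups overlapped. The 3 transcripts were chosen after their values were seen.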
